A study of Mus musculus with 33 samples.

Results

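The receptors of migrating neural crest described here are 10 genes of the 37991 counted per library, chosen by name: Ngfr, Ret, Gfra1, Ednra, Ednrb, Erbb3, Kit, Pdgfra, Cxcr4 and Nrp1. Their choice drew on the difference between Neil1-deficient and control embryoid bodies treated with retinoic acid, in which Ngfr was lower and Kit and Erbb3 were higher, so the members' values in that contrast are given as a description without a test. RNA-seq covered 33 libraries in 12 groups of E14TG2a cells, a line of mouse embryonic stem cells (mESCs), at 3 stages: undifferentiated mESCs, embryoid bodies (EBs, floating aggregates that differentiate without added signals) and EBs given retinoic acid (EBs + RA, 5 µM from day 4 until harvest on day 8). Every line had passed through transfection with a Cas9 plasmid, puromycin selection and colony picking. The control lines received the plasmid without guide RNA and comprised 3 clones (#1, #4 and #7). Neil1 mutants (#7, #9 and #11) and Neil2 mutants (#1, #11 and #14) lacked the segment coding for the active site of a DNA glycosylase, an enzyme that removes oxidised bases from DNA. The Apex1 mutant lacked the corresponding segment of an endonuclease that cuts abasic sites, and was a single clone (#46) with 2 technical replicates at each stage, so its p-values do not cover differences between clones.

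Neural crest cells leave the dorsal neural tube, migrate along defined routes and become peripheral neurons, glia, pigment cells and facial skeleton. On the way they read ligands laid down by the tissues they cross: endothelins, neurotrophins, GDNF-family factors, neuregulins, Kit ligand, PDGFs, Cxcl12, semaphorins and VEGF. None of the 10 receptors is private to the crest. Kit is also known from germ cells, blood precursors and mESCs, Pdgfra from mesoderm and primitive endoderm, Cxcr4 from mesendoderm and Nrp1 from vessels and growing axons. In these bulk cultures fewer cells of a type and less RNA per cell cannot be told apart.

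The promoters of 4 members are shown because the results turn on them: both endothelin receptors, the members with the largest response to retinoic acid beside Gfra1, and Cxcr4 and Nrp1, which were low in Neil-deficient EBs with and without it. They are RefSeq sequences of build GRCm38.p6, the 250 bases before the start site read 5′ to 3′ on the gene's strand, and 8 of the 10 members had an entry. Ednra is at chr8:77724453-77724702 (minus strand), Ednrb at chr14:103843702-103843951 (minus), Cxcr4 at chr1:128592300-128592549 (minus) and Nrp1 at chr8:128358823-128359072 (plus). Capitals mark matches on either strand to the motifs searched, which were the retinoic acid receptor half-site AGGTCA with its variant forms, namely AGTTCA, then also GGGTCA and in addition GGTTCA, the SOX site ACAAAG, the AP-2 site GCCNNNGGC, the GC box GGGCGG and the TATA box TATAAA.
Ednra: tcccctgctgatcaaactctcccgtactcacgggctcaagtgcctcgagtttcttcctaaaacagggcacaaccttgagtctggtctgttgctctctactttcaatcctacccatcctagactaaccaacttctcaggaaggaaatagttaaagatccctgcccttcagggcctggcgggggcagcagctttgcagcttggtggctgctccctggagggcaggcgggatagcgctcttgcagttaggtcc
Ednrb: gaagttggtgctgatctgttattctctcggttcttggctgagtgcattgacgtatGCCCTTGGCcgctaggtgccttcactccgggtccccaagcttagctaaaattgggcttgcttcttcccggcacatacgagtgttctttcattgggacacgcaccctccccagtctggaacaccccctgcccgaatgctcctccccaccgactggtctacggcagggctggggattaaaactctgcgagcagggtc
Cxcr4: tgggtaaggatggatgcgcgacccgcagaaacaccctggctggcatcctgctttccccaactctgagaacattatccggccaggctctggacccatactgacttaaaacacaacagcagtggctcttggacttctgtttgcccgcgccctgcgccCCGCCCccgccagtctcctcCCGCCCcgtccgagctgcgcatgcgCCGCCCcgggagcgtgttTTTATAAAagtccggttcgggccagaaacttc
Nrp1: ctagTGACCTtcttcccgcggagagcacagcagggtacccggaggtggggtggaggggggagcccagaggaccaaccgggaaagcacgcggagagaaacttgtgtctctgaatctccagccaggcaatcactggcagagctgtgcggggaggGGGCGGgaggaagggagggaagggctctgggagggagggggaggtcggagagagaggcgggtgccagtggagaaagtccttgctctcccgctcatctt
The Ednra window held no match, and that of Ednrb held 1 AP-2 site, a motif present in 13.7% of the 32851 promoters of this length. Cxcr4 had 3 GC boxes and 2 overlapping TATA matches on opposite strands, and these motifs occurred in 32.7% and 12.4% of all promoters. Nrp1 had 1 GC box and 1 half-site. Any of the 4 half-sites occurred in 38.6% of promoters, in Nrp1 and in Gfra1 among the 8 matched members, and the SOX site in 16.5%. Pdgfra had none of the motifs, Ngfr 4 GC boxes, and Kit 1 GC box and 1 AP-2 site. In the NCBIM37 annotation exons covered 188 of the 250 bases of the Gfra1 window, 71 of the Kit window, 37 of the Ngfr window and 12 of the Ednra window. The Ednrb and Gfra1 windows lay inside the annotated genes. The matches are a description of these windows only.

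Libraries held 21523742 to 48350904 counts on genes. Levels are given as CPM, which relates counts to the library size adjusted by the trimmed mean of M-values (TMM). Genotypes are those of the labels, and counts over whole genes do not check deletions that removed part of a gene: the Neil1 gene was at 1.42 to 31.6 CPM in libraries labelled Neil1 and 5.89 to 9.82 CPM in controls, the Neil2 gene at 4.87 to 18.3 CPM in libraries labelled Neil2 and 3.31 to 15.1 CPM in controls, and the Apex1 gene at 56.0 to 85.6 CPM in libraries labelled Apex1 and 7.69 to 17.9 CPM in controls. As to the label, the control EBs + RA held transcripts of all 14 crest specifiers, but so did undifferentiated control mESCs. Among them, control EBs + RA had Sox9 at a mean of 32.5 CPM, Tfap2b at 18.1 CPM and Sox10 at 2.26 CPM. Sox10, a defining marker of migrating crest, was at about the same level in control mESCs (2.18 CPM), whereas Sox9 and Tfap2b were at 0.0997 and 0.0372 CPM there and Foxd3 was higher in mESCs (19.4 CPM) than in EBs + RA (0.704 CPM).

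**Figure D1:**
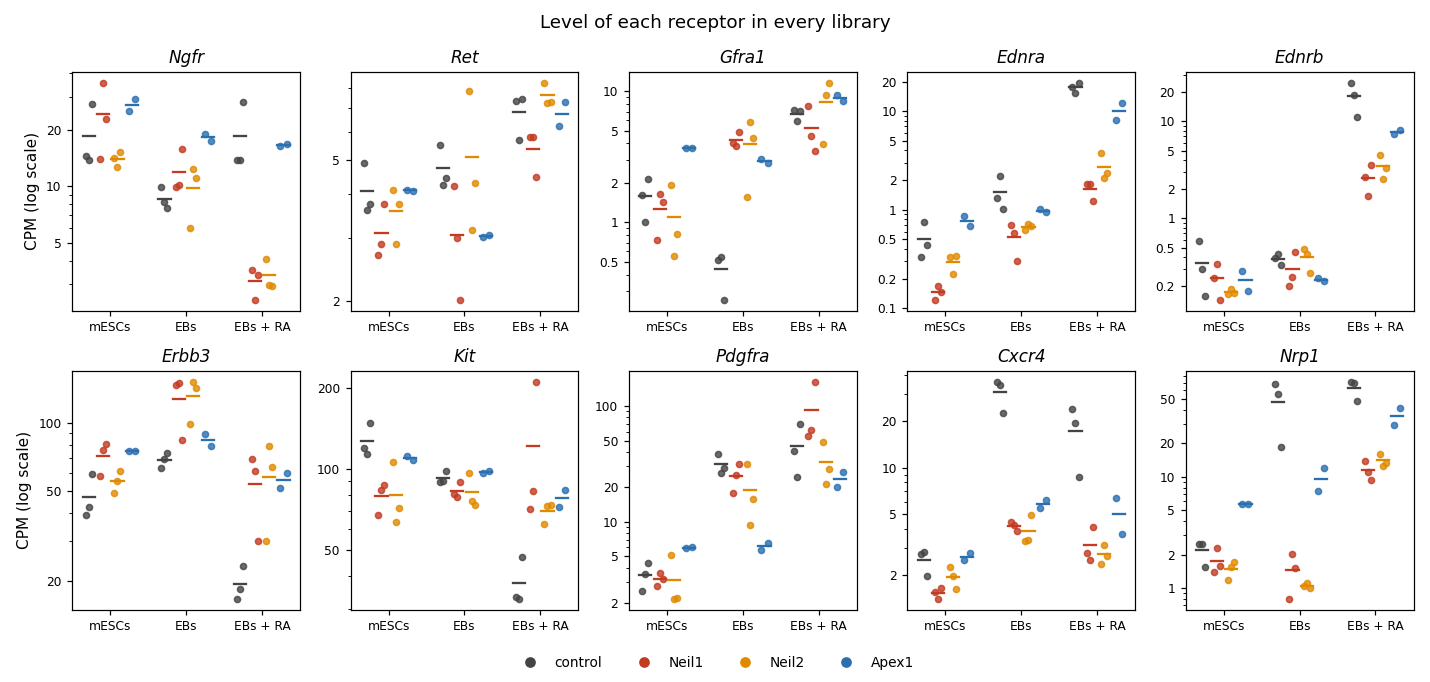
CPM of the 10 receptors (log axis) in every library at the 3 stages. Points are libraries, bars are group means, and colours are genotypes. In EBs + RA the Neil1 and Neil2 points of Ngfr, Ednra, Ednrb, Cxcr4 and Nrp1 lie below all control points, and those of Erbb3 and Kit above them.

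In control cells the order of the receptors changed with stage. Per kilobase of exon, control mESCs were led by Kit at 21.8 ± 3.19 CPM per kb (SD, n = 3), followed by Erbb3 at 7.82 ± 1.78 and Ngfr at 5.40 ± 2.26 CPM per kb. Erbb3 and Ngfr overlapped, whereas Kit lay above both in every clone. Ednrb was lowest at 0.0861 ± 0.0538 CPM per kb and overlapped with Ednra. In control EBs the order opened with Cxcr4 at 17.2 ± 4.07 and Kit at 15.9 ± 0.866 CPM per kb, which overlapped, and closed with Ednrb and Gfra1 at 0.0949 ± 0.0122 and 0.0805 ± 0.0291 CPM per kb, which overlapped as well. In control EBs + RA the 8 receptors from Nrp1 (10.6 ± 2.14 CPM per kb) down to Ednra (3.20 ± 0.374 CPM per kb) each overlapped with the next in order. Gfra1 (1.23 ± 0.132 CPM per kb) and Ret (0.928 ± 0.132 CPM per kb) were below these and did not overlap with each other.

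Differentiation without retinoic acid raised 5 of the 10 receptors in control cells and lowered 2 (quasi-likelihood test of edgeR, p-values adjusted after Benjamini and Hochberg, called at an adjusted p below 0.1 with a log2 fold change beyond 0.5, here and throughout). Of all genes tested 18.5% rose and 20.2% fell. Nrp1, a co-receptor for semaphorins and VEGF, went from 2.48, 2.51 and 1.54 CPM in mESCs of clones #1, #4 and #7 to 68.1, 55.1 and 18.5 CPM in their EBs (log2 fold change 4.39 ± 0.47 SE, adjusted p = 1.32e-04). Cxcr4, the receptor for the chemokine Cxcl12, went from 2.74, 2.81 and 1.98 CPM to 36.0, 34.5 and 22.6 CPM (3.59 ± 0.24, adjusted p = 9.85e-06). Neither receptor overlapped between the stages, and clone #7 gave the lowest value of both at each. Pdgfra, a PDGF receptor, rose from 2.52 to 4.35 CPM to 26.4 to 38.6 CPM (3.14 ± 0.24, adjusted p = 1.99e-05), and Ednra from a mean of 0.505 to 1.51 CPM (1.53 ± 0.43, adjusted p = 0.0202). The rise of Erbb3 was small (0.51 ± 0.16, adjusted p = 0.0321) and lost its call without the mESCs of #1 or #4 or the EBs of #7, with log2 values between 0.41 and 0.72. Ngfr fell by 1.15 on the log2 scale (SE 0.27, adjusted p = 0.00901) and Gfra1 by 1.86 (SE 0.41, adjusted p = 0.00661). The groups did not overlap for any of these 7 receptors. Kit stood at 114 to 148 CPM in mESCs and 89.5 to 98.5 CPM in EBs, a log2 difference of -0.49 ± 0.13 that missed the fold limit and was called without the mESCs of #1 or #4 or the EBs of #7.

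Retinoic acid raised 5 receptors in control EBs (Ngfr, Ret, Gfra1, Ednra and Ednrb) and lowered 3 (Erbb3, Kit and Cxcr4), against 23.3% of all genes tested that rose and 20.7% that fell. The control EBs + RA libraries also entered the contrast that chose the members, so these counts are partly set by that choice. These EBs and EBs + RA came from the same clones. With the clone as a block, Nrp1 also passed (log2 0.60, adjusted p = 0.0677), whereas the fit without it gave 0.44 ± 0.42. No other call changed under this pairing.

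Both endothelin receptors were among the most strongly induced. Ednrb, which binds all 3 endothelins and is known for enteric and pigment cell precursors, was at 0.389, 0.429 and 0.331 CPM in control EBs #1, #4 and #7 and at 25.1, 18.8 and 11.1 CPM in EBs + RA. That was a 48.5-fold difference (log2 5.60 ± 0.37, adjusted p = 8.57e-06). Ednra, which prefers Edn1 and patterns the jaw, was at 1.32, 2.18 and 1.03 CPM without and 17.7, 15.4 and 19.5 CPM with retinoic acid (log2 3.58 ± 0.28, adjusted p = 1.79e-05). For each receptor all clones rose, with no overlap. In Neil1 EBs + RA Ednrb read 2.67, 1.70 and 3.52 CPM in clones #7, #9 and #11, and Ednra 1.83, 1.84 and 1.24 CPM. Every Neil1 value was below every control value, with fitted log2 differences of -2.83 ± 0.38 and -3.43 ± 0.25 (description, without a test). Neil2 EBs + RA gave 4.48, 2.57 and 3.31 CPM of Ednrb in clones #1, #11 and #14 (log2 -2.41 ± 0.35, adjusted p = 0.00191) and 3.74, 2.09 and 2.37 CPM of Ednra (-2.68 ± 0.26, adjusted p = 4.65e-04). These are also below all controls, but the control libraries are the same ones that entered the Neil1 contrast. The Apex1 replicates lay between, at 7.49 and 8.12 CPM of Ednrb (-1.22 ± 0.32, adjusted p = 0.0332) and 8.12 and 12.1 CPM of Ednra (-0.77 ± 0.22, adjusted p = 0.0398). Both Apex1 calls were lost with the duplicates summed to 1 library (adjusted p = 0.145 for Ednra and 0.195 for Ednrb), and the Ednra call also without control #1 or the first duplicate and the Ednrb call without either duplicate.

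Without retinoic acid the endothelin receptors were low in every genotype. Ednra was at 0.701, 0.584 and 0.304 CPM in Neil1 EBs (log2 -1.53 ± 0.41, adjusted p = 0.0182) and at 0.619, 0.726 and 0.684 CPM in Neil2 EBs (-1.15 ± 0.37, adjusted p = 0.0788), all below the controls. The Neil2 call did not hold without control EBs #1 or #4 or Neil2 EBs #11 or #14, where log2 values ran from -1.35 to -0.80. Ednrb was between 0.200 and 0.488 CPM in the EBs of all 4 genotypes, and no genotype passed for it.

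Ngfr, the p75 receptor for neurotrophins and a common marker of migrating crest, rose with retinoic acid in controls and was low with it in both Neil mutants. Control EBs #1, #4 and #7 had 9.90, 8.23 and 7.69 CPM and control EBs + RA 13.8, 13.8 and 28.2 CPM (log2 1.14 ± 0.29, adjusted p = 0.0104). Clone #7 stood apart in EBs + RA at 28.2 CPM, and the same clone was highest in mESCs at 27.6 CPM. Neil1 EBs + RA had 3.58, 2.49 and 3.36 CPM, a fitted log2 difference of -2.58 ± 0.34 (the contrast on which Ngfr was selected). Neil2 EBs + RA had 4.11, 2.98 and 2.96 CPM (-2.47 ± 0.33, adjusted p = 0.00145), all below the shared controls. The Apex1 duplicates, at 16.3 and 16.8 CPM, lay within the control range. In EBs without retinoic acid the Neil1 values of 9.91, 10.2 and 15.7 CPM lay at or above the highest control without passing (log2 0.47 ± 0.20, adjusted p = 0.111, called without Neil1 #7 or #9), Neil2 values of 5.99 to 12.4 CPM overlapped them, and Apex1 values of 18.9 and 17.5 CPM were higher (1.10 ± 0.15, adjusted p = 4.89e-04).

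Gfra1 binds GDNF and passes the signal to the receptor kinase Ret, the pair that guides enteric crest cells. Gfra1 was at 0.519, 0.546 and 0.257 CPM in control EBs and 7.21, 5.88 and 7.04 CPM in control EBs + RA, a 15.2-fold rise (log2 3.93 ± 0.30, adjusted p = 1.80e-05). In EBs of all mutants it was higher than in every control. Neil1 EBs had 4.06, 3.80 and 4.86 CPM (3.23 ± 0.31, adjusted p = 3.71e-05), Neil2 EBs 1.56, 5.85 and 4.42 CPM (3.13 ± 0.53, adjusted p = 0.00707) and Apex1 EBs 3.02 and 2.84 CPM (2.72 ± 0.33, adjusted p = 2.14e-04). With retinoic acid the Neil mutants overlapped the controls, with Neil1 at 7.77, 4.58 and 3.48 CPM (fitted log2 -0.37 ± 0.31, description) and Neil2 at 3.96 to 11.6 CPM. The Apex1 duplicates, at 8.46 and 9.39 CPM, stayed above all controls (0.43 ± 0.20, adjusted p = 0.177). Neither Neil2 nor Apex1 passed, although Neil2 did without clone #1. Ret itself ranged from 2.01 to 8.26 CPM over all 33 libraries. It rose with retinoic acid from 5.51, 4.25 and 4.45 CPM to 7.34, 5.70 and 7.41 CPM in controls (0.55 ± 0.20, adjusted p = 0.0489), a call that was lost without control EBs #4 or #7 or control EBs + RA #1 or #7 (log2 0.48 to 0.66). Ret was lower in Apex1 EBs, at 3.02 and 3.06 CPM (-0.62 ± 0.22, adjusted p = 0.0486), but not with the duplicates summed (adjusted p = 0.204), nor without control EBs #1 or without either duplicate (log2 -0.69 to -0.51). Neil1 EBs, at 4.21, 3.005 and 2.01 CPM, missed the limit (-0.64 ± 0.27, adjusted p = 0.104) but were called without clone #7, without the filter and by DESeq2. In Neil1 EBs + RA it was at 5.78, 5.81 and 4.48 CPM, overlapping the controls (fitted log2 -0.37 ± 0.23, description).

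The receptor tyrosine kinases Erbb3 and Kit went the other way. Erbb3, which binds neuregulins and supports glial precursors, was at 63.1, 69.4 and 73.2 CPM in control EBs and 16.7, 18.4 and 23.3 CPM in control EBs + RA (log2 -1.78 ± 0.14, adjusted p = 2.25e-05). In EBs + RA the Neil1 clones had 69.2, 61.4 and 30.0 CPM (fitted log2 1.44 ± 0.29, selected on this contrast), the Neil2 clones 30.0, 79.1 and 64.0 CPM (1.56 ± 0.32, adjusted p = 0.00759) and the Apex1 duplicates 51.5 and 60.1 CPM (1.54 ± 0.17, adjusted p = 0.0013). The Neil2 and Apex1 libraries exceeded all of the shared controls, and Neil2 #1 was close to control #7. Without retinoic acid Erbb3 was also higher in the Neil1 clones, at 146, 149 and 83.6 CPM (0.88 ± 0.21, adjusted p = 0.0174, not called without the filter on low counts), and in the Neil2 clones, at 98.5, 151 and 142 CPM (0.93 ± 0.17, adjusted p = 0.0104). The Apex1 duplicates at 88.7 and 78.5 CPM were above the controls with a log2 difference under the fold limit.

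Kit, the receptor for stem cell factor that guides pigment cell precursors, fell with retinoic acid in controls from 89.5, 90.0 and 98.5 CPM to 33.3, 32.8 and 47.1 CPM (log2 -1.27 ± 0.15, adjusted p = 1.70e-04). In Neil1 EBs + RA it was at 70.7, 82.8 and 211 CPM (fitted log2 1.67 ± 0.41, selected on this contrast). Clone #11 was far above the other 2 clones, and without it the fitted difference was 0.99, the lowest of the 6 fits that each left out 1 library. Neil2 EBs + RA had 62.5, 72.5 and 73.4 CPM (0.88 ± 0.16, adjusted p = 0.00453) and Apex1 72.2 and 83.7 CPM (1.07 ± 0.18, adjusted p = 0.00541), above all controls. In EBs Kit ran from 73.4 to 98.5 CPM over the 4 genotypes and passed in none of the mutants. In mESCs the Neil1 clones had 67.2, 83.7 and 87.0 CPM and the Neil2 clones 106, 63.2 and 71.5 CPM, below controls of 119, 114 and 148 CPM, but neither passed (called without control #7 and without Neil2 #1, respectively).

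Pdgfra, which marks cranial crest mesenchyme, varied widely between clones in EBs + RA. Controls had 40.4, 24.2 and 69.2 CPM and Neil1 clones 54.4, 61.7 and 161 CPM, with clone #11 again highest (fitted log2 1.03 ± 0.49, and 0.35 to 1.48 when 1 library was left out). Neil2 clones at 48.8, 21.0 and 28.3 CPM and Apex1 duplicates at 19.8 and 26.8 CPM overlapped the controls and did not pass, although Apex1 did without control #4 and by DESeq2. In EBs the Apex1 duplicates had 5.73 and 6.50 CPM against 38.6, 26.4 and 29.3 CPM in controls (log2 -2.34 ± 0.18, adjusted p = 1.81e-05), whereas the Neil1 and Neil2 clones overlapped the controls and did not pass (called without Neil1 #11 and without Neil2 #1).

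Cxcr4 and Nrp1 were low in Neil-deficient EBs whether or not retinoic acid was present. Nrp1 had 0.801, 2.04 and 1.52 CPM in Neil1 EBs (log2 -5.00 ± 0.64, adjusted p = 0.00293) and 1.04, 1.11 and 1.00 CPM in Neil2 EBs (-5.48 ± 0.49, adjusted p = 4.59e-04), where controls had 68.1, 55.1 and 18.5 CPM. The mutant EBs thus stayed near the levels of control mESCs, 1.54 to 2.51 CPM. In EBs + RA Nrp1 was at 13.7, 11.1 and 9.45 CPM in Neil1 (fitted log2 -2.48 ± 0.22, description) and 16.2, 12.6 and 13.4 CPM in Neil2 (-2.16 ± 0.19, adjusted p = 3.49e-04), where the shared controls had 71.1, 69.1 and 48.3 CPM. Apex1 duplicates had 29.0 and 41.3 CPM (-0.82 ± 0.22, adjusted p = 0.0347), a call lost without control #1 or the first duplicate and with the duplicates summed (adjusted p = 0.159). In Apex1 EBs, at 7.38 and 11.9 CPM, the log2 difference of -2.27 ± 0.74 did not pass (adjusted p = 0.107), and it passed without control EBs #7, the lowest control. Cxcr4 was at 4.46, 4.26 and 3.87 CPM in Neil1 EBs (-2.90 ± 0.19, adjusted p = 4.20e-06), 3.35, 3.37 and 4.88 CPM in Neil2 EBs (-3.01 ± 0.24, adjusted p = 2.87e-04) and 5.44 and 6.13 CPM in Apex1 EBs (-2.40 ± 0.21, adjusted p = 4.74e-05). All were below the lowest control of 22.6 CPM. In EBs + RA controls were spread over 23.9, 19.5 and 8.63 CPM, Neil1 over 2.77, 2.52 and 4.12 CPM (fitted log2 -2.49 ± 0.40, description), Neil2 over 2.37, 3.14 and 2.68 CPM (-2.67 ± 0.38, adjusted p = 0.00178) and Apex1 over 6.30 and 3.70 CPM (-1.78 ± 0.44, adjusted p = 0.0256). Again no mutant reached the lowest control, #7, and the Apex1 call was lost without either duplicate, without the filter on low counts and with the 2 summed (adjusted p = 0.142). The fall of Cxcr4 with retinoic acid in controls (-0.81 ± 0.35, adjusted p = 0.0842) had overlapping groups and was lost without the filter and without control EBs #1 or #4 or control EBs + RA #4 or #7, where log2 values ran from -1.12 to -0.49.

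Counted over the members, mESCs showed no call in either Neil mutant. Of all genes tested there, 1.82% were called for Neil1 and 1.83% for Neil2, and 8 of the 10 members passed the filter on low counts, all but Ednra and Ednrb. At an unadjusted p below 0.05 there were 3 members for Neil1 and 1 for Neil2, against 2387 of 15569 and 2361 of 15615 genes. DESeq2 called 1 (Kit) in each, against 1044 of 16238 and 814 of 15304 genes. Without control mESCs #7 Neil1 had 3 calls (Erbb3, Kit and Cxcr4), where 2011 of 15958 genes were called. In EBs 2 members rose and 3 fell in Neil1, against 10.4% and 13.1% of all genes, and 2 rose and 3 fell in Neil2, against 8.65% and 7.69%. They were Gfra1 and Erbb3, higher, and Ednra, Cxcr4 and Nrp1, lower, and the contrasts share their control libraries. In EBs + RA all Neil1 clones lay below all controls for 5 members and above them for 2, where 23.8% and 24.5% of genes with at least 10 counts had all clones lower and higher and 19.9% and 21.2% of tested genes were called lower and higher. Nothing is read from these counts, since this contrast chose the members. In Neil2 EBs + RA 5 fell and 2 rose, where 16.6% and 18.3% of all genes did. The control libraries of this contrast are those that chose the members, so its counts are partly set by that choice.

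Apex1 gave its own counts. In mESCs 3 members rose (Gfra1 1.21 ± 0.34, Erbb3 0.66 ± 0.18 and Nrp1 1.39 ± 0.28 on the log2 scale, adjusted p = 0.0664, 0.0665 and 0.0359) and none fell, against 7.87% and 9.07% of all genes. All 3 calls were lost with the duplicates summed (adjusted p = 0.325 to 0.366), without either duplicate, and without control mESCs #4. Without control mESCs #1 the calls of Gfra1 and Erbb3 were lost too. Without #7 there were 5 calls, where 6154 of 16090 genes were called. In EBs 2 members rose (Ngfr and Gfra1) and 3 fell (Ret, Pdgfra and Cxcr4), against 11.9% and 13.9%. In EBs + RA 2 rose (Erbb3 and Kit) and 4 fell (Ednra, Ednrb, Cxcr4 and Nrp1), against 13.9% and 10.9%, and with the duplicates summed the rises remained called and no fall did. The control libraries of the EBs + RA contrast are those that chose the members, so its counts too are partly set by that choice.

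**Figure D2:**
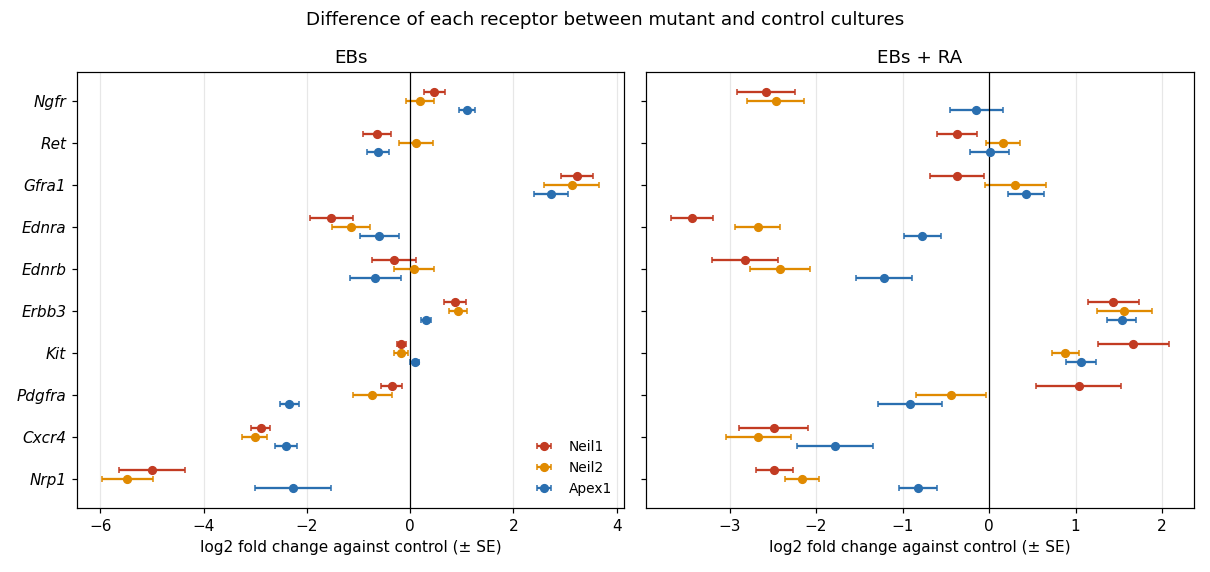
Fitted log2 fold change (± SE) of each receptor against control in EBs (left) and EBs + RA (right). Points are Neil1, Neil2 and Apex1. Nrp1 and Cxcr4 lie left of 0 in all mutants at both stages, Gfra1 lies right of 0 in EBs but not in Neil1 EBs + RA, and Ngfr, Ednra and Ednrb reach below -2 in Neil1 and Neil2 EBs + RA only. The Neil1 points of the right panel chose the members.

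Whether a mutant changed the response to retinoic acid was tested as the difference between its effects in EBs + RA and in EBs. For Neil2 the difference was negative for Ngfr (log2 -2.68 ± 0.46, adjusted p = 0.00261), Gfra1 (-2.84 ± 0.67, adjusted p = 0.0168), Ednra (-1.55 ± 0.44, adjusted p = 0.041) and Ednrb (-2.50 ± 0.54, adjusted p = 0.0101). These 4 receptors rose with retinoic acid in controls, and Ngfr fell from a mean of 9.82 to 3.35 CPM in Neil2 cultures where it rose from 8.61 to 18.6 CPM in controls. The difference was positive for Kit (1.04 ± 0.22, adjusted p = 0.00879) and for Nrp1 (3.30 ± 0.53, adjusted p = 0.00166), whose Neil2 level rose from a mean of 1.05 to 14.05 CPM while the control mean went from 47.2 to 62.8 CPM. With 4 members lower and 2 higher, the background was 7.7% and 7.31% of all genes. The Ednra call was lost without Neil2 EBs + RA #14 (log2 -1.89 to -1.35 over the 12 fits), and with the clone as a block Erbb3 was called as well (0.55, adjusted p = 0.0748). For Apex1 the difference was negative for Ngfr (-1.26 ± 0.38, adjusted p = 0.0575) and Gfra1 (-2.31 ± 0.37, adjusted p = 0.00208) and positive for Erbb3 (1.22 ± 0.20, adjusted p = 0.00268) and Kit (0.96 ± 0.20, adjusted p = 0.0109), against 5.7% and 10% of all genes. With the duplicates summed, Gfra1 and Erbb3 stayed called and Ngfr and Kit did not (adjusted p = 0.321 and 0.131). The Ngfr call was also lost without control EBs #4 or #7 or without any of the 4 Apex1 libraries (log2 -1.43 to -0.84), and with a block on the replicate number Pdgfra (1.51, adjusted p = 0.0441) and Nrp1 (1.3, adjusted p = 0.052) were called as well. Ednra and Ednrb, at log2 differences within 1 SE of 0, did not pass for Apex1. The Neil2 and Apex1 tests used the control EBs + RA libraries of the contrast that chose the members, so they are not independent of that choice. For Neil1 the corresponding difference rests on the contrast itself and was not tested.

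**Figure D3:**
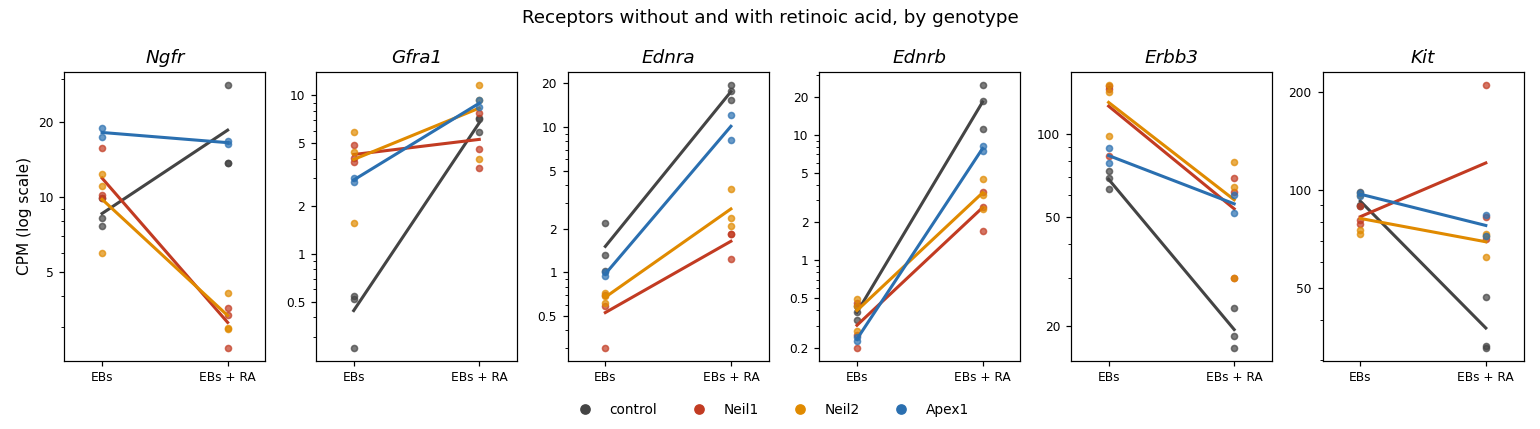
CPM (log axis) of 6 receptors in EBs and EBs + RA. Points are libraries and lines join the group means of a genotype. Control lines rise for Ngfr, Gfra1, Ednra and Ednrb and fall for Erbb3 and Kit, and the Neil1 and Neil2 lines of Ngfr fall.

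The 2 glycosylase mutants were set against each other without the controls. In EBs 0% of all genes and no member passed, with 735 of 15294 genes and none of the members at an unadjusted p below 0.05, and DESeq2 called no member. In EBs + RA edgeR again called 0% of all genes and no member, with 1608 of 15884 genes and 2 members below an unadjusted p of 0.05. DESeq2 called 111 of 14959 genes and 1 member, Pdgfra. Pdgfra was at 54.4, 61.7 and 161 CPM in Neil1 and 48.8, 21.0 and 28.3 CPM in Neil2, with no overlap (edgeR log2 1.52 ± 0.49, adjusted p = 0.486). Missing the threshold does not show that the mutants were alike for the other 9 receptors.

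Ligands of these receptors were also counted in the same cultures. Of the 24 ligands 20 were tested for Neil1 in EBs + RA, where 5 were called higher and 9 lower, a count from the contrast that chose the members and given as a description. Sema3a, a repellent read through Nrp1, was lowest relative to control, at 0.462 ± 0.521 against 15.1 ± 2.46 CPM (SD, n = 3, log2 -4.98 ± 0.76). Cxcl12, the ligand of Cxcr4, was at 5.35 ± 2.47 against 62.8 ± 15.7 CPM (-3.57 ± 0.35). The 2 largest rises were of Nrg2 (2.17 ± 0.65), a neuregulin, and Pdgfa (1.01 ± 0.16), the main ligand of Pdgfra. For all genes tested 21.2% were called higher and 19.9% lower there. In Neil2 EBs + RA 4 of 20 ligands rose and 11 fell (all genes 18.3% and 16.6%), with Sema3a at 0.916 ± 0.0417 CPM and Cxcl12 at 5.02 ± 0.533 CPM lowest relative to the same controls and Pdgfa and Nrtn rising most. Apex1 EBs + RA had 5 rises and 7 falls among 21 (all genes 13.9% and 10.9%), the largest falls being of the neurotrophins Bdnf (-1.29 ± 0.28, adjusted p = 0.0158) and Ntf3 (-1.17 ± 0.30, adjusted p = 0.0296). In EBs the counts were 3 rises and 8 falls of 20 for Neil1 (all genes 10.4% and 13.1%), 3 and 5 of 21 for Neil2 (8.65% and 7.69%) and 2 and 8 of 20 for Apex1 (11.9% and 13.9%), and Ntf3 was among the 2 largest falls of each mutant. Retinoic acid raised 9 and lowered 4 of 20 in controls (all genes 23.3% and 20.7%), with Gdnf, the ligand of Gfra1, rising most, from 0.0627 ± 0.0789 to 0.739 ± 0.260 CPM (3.23 ± 0.65, adjusted p = 0.00317).

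Partner receptors and the converting enzyme of endothelins made up a list of 19. All were tested in EBs + RA, where 10 fell and 1 rose in Neil2 (all genes 16.6% and 18.3%) and 7 fell and 3 rose in Apex1 (10.9% and 13.9%). In Neil1 12 were called lower and none higher (19.9% and 21.2%), a description from the contrast that chose the members. Ntrk2, a neurotrophin receptor kinase that can act with Ngfr, was at 20.4 ± 5.71 CPM in controls, 0.946 ± 0.259 CPM in Neil1 (log2 -4.45 ± 0.31) and 1.51 ± 0.153 CPM in Neil2 (-3.75 ± 0.26, adjusted p = 1.71e-04). Erbb4, a neuregulin receptor, was at 2.01 ± 0.236 CPM in controls and between 0.0701 and 0.162 CPM on average in the 3 mutants. In EBs 12 of 17 fell and 2 rose in Neil1 (all genes 13.1% and 10.4%), 7 fell and 2 rose in Neil2 (7.69% and 8.65%), and 9 fell in Apex1 (13.9% lower). The largest falls in each were of Gfra2, a neurturin receptor, and Pdgfrb. The rises in both Neil mutants were of the semaphorin receptor Plxna3 and of Ntrk2, at 2.02 ± 0.0279 CPM in Neil1 and 1.96 ± 0.323 CPM in Neil2 against 1.07 ± 0.200 CPM in controls (adjusted p = 0.0275 and 0.0927). In controls retinoic acid raised 11 of 19 and lowered 2 (all genes 23.3% and 20.7%), with the largest rises in Ntrk3 (5.79 ± 0.54, adjusted p = 4.90e-05) and Erbb4 (5.54 ± 0.40, adjusted p = 1.28e-05) and falls in Gfra2 and Nrp2. Nrp2, the relative of Nrp1, went from 100.0 ± 35.0 to 18.6 ± 5.72 CPM, whereas Nrp1 did not fall.

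Summed levels of crest specifiers and of markers of some other cell types were also lower in mutant EBs + RA. Of the 14 crest specifiers 9 fell and 1 rose in Neil2 EBs + RA (all genes 16.6% and 18.3%) and 7 fell and 2 rose in Apex1 (10.9% and 13.9%). In Neil1 9 were called lower and none higher (19.9% and 21.2%), again a description from the contrast that chose the members. Tfap2b, a crest transcription factor, was at 18.1 ± 9.09 CPM in controls, 0.0598 ± 0.0422 in Neil1, 0.0842 ± 0.0761 in Neil2 and 1.31 ± 0.42 CPM in Apex1, and Pax3 was among the 2 largest falls of each. The specifiers summed to 229 to 320 CPM in control EBs + RA, 75.7 to 86.8 CPM in Neil1, 85.9 to 93.8 CPM in Neil2 and 153 to 178 CPM in Apex1, an order shared by Ednra, Ednrb and Nrp1. Mesoderm and mesenchyme markers summed to 267 to 313 CPM in control EBs + RA, 26.4 to 27.8 CPM in Neil1, 27.1 to 52.0 CPM in Neil2 and 194 to 244 CPM in Apex1. In EBs, where Cxcr4 and Nrp1 were low, they summed to 230 to 293 CPM in controls, 6.26 to 9.26 CPM in Neil1, 7.81 to 10.7 CPM in Neil2 and 50.6 to 68.0 CPM in Apex1. None of these 9 markers was at 0 throughout a group of EBs or EBs + RA. Neuronal markers in EBs + RA summed to 157 to 255 CPM in controls and 29.1 to 57.2 CPM over all mutants. In undifferentiated control mESCs this list summed to 436 to 464 CPM, of which Stmn2 made up 69.6%, so the sum is not specific to neurons. Neural progenitor markers summed to 220 to 386 CPM in control EBs + RA, 34.8 to 79.6 CPM in Neil1, 55.2 to 101 CPM in Neil2 and 153 to 154 CPM in Apex1, with 6, 5 and 5 of 6 called lower (all genes 19.9%, 16.6% and 10.9%, Neil1 as a description). In EBs, where Sox2 made up most of the sum, they were at 334 to 342 CPM in controls and 445 to 605 CPM over all mutants. Of the crest derivative markers tested in EBs + RA, 6, 5 and 4 of 10 were called lower in Neil1, Neil2 and Apex1 (all genes 19.9%, 16.6% and 10.9%). In the same order 1, 3 and 2 were called higher (all genes 21.2%, 18.3% and 13.9%), with the Neil1 counts as a description. The list summed to 44.5 to 60.0 CPM in controls, 33.4 to 44.2 CPM in Neil1, 43.0 to 45.5 CPM in Neil2 and 43.4 to 49.8 CPM in Apex1. In undifferentiated control mESCs the same list summed to 58.9 to 83.8 CPM, of which Tyr made up 55.3%. The part of these cells in the lower receptor levels was not tested.

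Some other lists were also higher in mutant EBs + RA, where Erbb3 and Kit were higher. A relation between these lists and the receptors was not tested. Pluripotency markers summed to 155 to 241 CPM in control EBs + RA, 438 to 890 CPM in Neil1, 492 to 1634 CPM in Neil2 and 1531 to 2104 CPM in Apex1. Of these 7 markers 6 were called higher in Neil1 (description), 7 in Neil2 and 6 in Apex1, against 21.2%, 18.3% and 13.9% of all genes. In EBs they summed to 3176 to 3744 CPM in controls and 4664 to 6481 CPM over all mutants. Erbb3 was called higher there in both Neil mutants, but Kit in no mutant. Germ cell markers in EBs + RA summed to 255 to 550 CPM in controls, 578 to 1013 CPM in Neil1, 1292 to 1613 CPM in Neil2 and 559 to 627 CPM in Apex1, of which Stra8, a target of retinoic acid, made up 78.8% to 87.7%. Neil1 #11, the clone with the most Kit and Pdgfra in EBs + RA, had the least germ cell marker RNA of the Neil1 clones (578 CPM). It had the most endothelial marker RNA (138 CPM, against 27.9 and 36.1 CPM in the other 2 and 34.8 to 42.4 CPM in controls) and the most extraembryonic endoderm marker RNA (1244 CPM, against 638 and 1027 CPM, and 202 to 613 CPM in controls). Cdh5 alone made up 60.8% of the endothelial sum over the Neil1 EBs + RA. Of the 7 endothelial markers 4 were called lower and 2 higher there (all genes 19.9% and 21.2%, description). Blood markers summed to 14.7 to 23.9 CPM in Neil1 and 8.97 to 11.1 CPM in control EBs + RA, with Hbb-bh1 at 0 in both. In Apex1 EBs, where Pdgfra was low, 7 of 8 extraembryonic endoderm markers fell (all genes 13.9%), to a sum of 111 to 122 CPM against 372 to 757 CPM in controls. The part of these cells in the higher or lower levels was not tested.

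**Figure D4:**
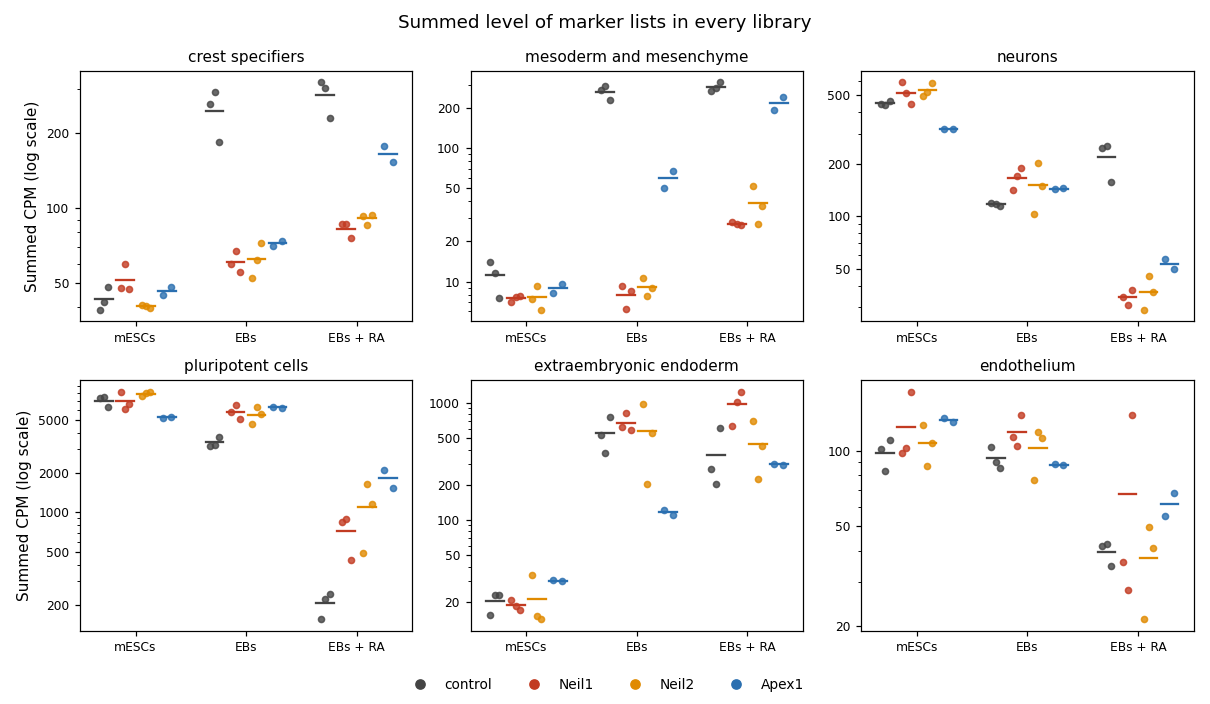
Summed CPM (log axis) of 6 marker lists in every library at the 3 stages, with bars at the group means. Crest specifier, mesoderm and neuronal sums of Neil1 and Neil2 EBs + RA lie below the controls, pluripotency sums lie above them, and 1 Neil1 library (#11) is highest for endothelium in EBs + RA.

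Over the 33 libraries the receptors fell into patterns of their own, described here by Pearson's r of log2 CPM. The points span all stages and genotypes, whose differences were not removed and enter r. Ednra and Ednrb were most alike among the members (r = 0.896), followed by Ednra and Nrp1 (r = 0.841), and Ednrb and Erbb3 were most opposed (r = -0.679). Among 11212 other genes the most like Ednrb were Crabp2 (r = 0.962) and Meis1 (r = 0.958), the most like Ednra were Antxr1 (r = 0.962) and Zfp618 (r = 0.96), and the most like Nrp1 were Bach2 (r = 0.955) and Wls (r = 0.948). Crabp2 encodes a binding protein for retinoic acid. Gata4, a transcription factor known from extraembryonic endoderm, was among the genes most like Pdgfra (r = 0.963). Cxcr4 was most like Greb1 (r = 0.933) and Msx1 (r = 0.898), Erbb3 like Otud1 (r = 0.938) and Znrf2 (r = 0.928), Ngfr like Zfp462 (r = 0.903) and Ipo9 (r = 0.888), and Gfra1 like Enpp4 (r = 0.9) and Rtn1 (r = 0.809). Ret was most like Trim68 (r = 0.875) and Gdpd1 (r = 0.847), and Kit like Nid2 (r = 0.795) and Setd4 (r = 0.791).

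The members lie on 8 chromosomes, with Kit (chr5:75970941-76052747) and Pdgfra (chr5:75548316-75594229) next to each other and Ednra (chr8:80186930-80248363) and Nrp1 (chr8:130882973-131029362) far apart on the other shared one (NCBIM37). The expressed genes within 5 Mb of each member, 19 to 110 of them, had median log2 differences from the controls of the stage between -0.42 and 0.30 in every mutant library. For Nrp1 in Neil1 and Neil2 EBs the medians lay between -0.0755 and 0.0456, beside fitted differences of -5.00 and -5.48 for the gene itself. Around Kit and Pdgfra they were -0.205 to -0.0603 in Neil1 EBs + RA and -0.301 to -0.207 in Neil2 EBs + RA, below 0 where Kit was higher.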

How the data were processed

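The authors prepared unstranded libraries from total RNA, aligned reads to NCBIM37 with TopHat2 2.0.9 and Bowtie2 2.1.0, counted them per gene with HTSeq 0.5.4, and deposited raw counts per gene, used here as deposited. The strand setting is not given in the sources used here, so reads of overlapping or antisense genes cannot be told apart. The 5 rows that name no gene (21.8% to 30.4% of counts) were left out. Ensembl identifiers were named from the NCBIM37 annotation. No 2 libraries of a group agreed within sampling noise (chi-square per degree of freedom 5.58 to 127).

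Each comparison was fitted on its own groups with edgeR 4.0.16 (R 4.3.3; filterByExpr, TMM, robust quasi-likelihood test, Benjamini-Hochberg adjustment over all genes tested), calling genes by the study's limits, an adjusted p below 0.1 and a log2 fold change beyond 0.5 in size. The fit was tested on simulated counts for 4 of the 15 comparisons, with 200 genes changed by 1.5 on the log2 scale. It recovered 164 for Neil2 in EBs, 179 for Apex1 in EBs and 168 for retinoic acid in controls, with 23, 37 and 38 false calls. In each of these comparisons the false share of the calls was above the adjusted p limit of 0.1. For the Neil2 difference between EBs + RA and EBs the fit recovered 112, with 9 false calls, so changes of this size can be missed there. SE is the fold change over the square root of F. An exact permutation of 3 against 3 samples cannot go below p = 0.1 and was not used. Log2 CPM used a prior count of 2. The text names all members, at most 2 called genes per direction from the lists of ligands, partner receptors and crest specifiers, and 2 most alike genes per member, among genes averaging 2 or more in log2 CPM, of which 1 is not reported here. Of other lists it names genes at 0 or leading the sum, plus Sox9, Tfap2b, Sox10 and Foxd3 in controls, chosen after their values were seen. Members and lists were chosen with earlier results of these data known. Sox1 of the neural progenitor list was not matched. EBs of a clone were divided on day 4 into cultures with and without retinoic acid, and their deviations from the group means correlated within clones (r = 0.332 to 0.417). Deviations of Neil1 and control EBs + RA of the same number also correlated (r = 0.215 to 0.31). Alternatives were other size factors, no filter, DESeq2 1.42.0, a block, a fit over all genotypes, summed Apex1 duplicates and leaving out each library.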

Additional observations from a re-analysis of the deposited data

Results flagged for a closer look

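Differences between the effects of a mutant in EBs + RA and in EBs passed the test for 6 receptors in Neil2, with log2 values of -2.68 for Ngfr, -2.84 for Gfra1, -1.55 for Ednra, -2.50 for Ednrb, 1.04 for Kit and 3.30 for Nrp1. They passed for 4 receptors in Apex1, with -1.26 for Ngfr, -2.31 for Gfra1, 1.22 for Erbb3 and 0.96 for Kit. The Apex1 libraries were technical duplicates of 1 clone, and with these summed Ngfr and Kit did not pass (adjusted p = 0.321 and 0.131). For Neil1, every Ngfr value was above the controls in EBs and below them in EBs + RA (fitted log2 0.47 and -2.58), and every Kit value was below the controls in EBs and above them in EBs + RA (-0.17 and 1.67). Neither difference in EBs was called (adjusted p = 0.111 for Ngfr and 0.196 for Kit by edgeR), and in both the nearest Neil1 and control values were almost equal. The Neil1 differences between the stages were not tested, because the Neil1 contrast in EBs + RA chose the members. The Neil2 and Apex1 tests used the same control EBs + RA libraries, so they are not independent of that choice.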

How the results depend on the processing

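The number of members called moved by more than 1.5 times in these cases. For Neil1 mESCs it went from 0 to 1 without the filter on low counts, to 1 with DESeq2, to 3 with all genotypes in 1 fit, and from 0 to 3 over the fits that left out 1 library. For Neil2 mESCs it went from 0 to 1 with DESeq2, to 1 with a replicate block, and from 0 to 1 with 1 library left out. For Apex1 mESCs it went from 3 to 1 at an adjusted p below 0.05, to 5 with a replicate block, to 0 with duplicates summed, and from 0 to 5 with 1 library left out. For Apex1 EBs + RA it went from 6 to 2 with duplicates summed and from 2 to 7 with 1 library left out. For the Apex1 difference between EBs + RA and EBs it went from 4 to 2 with duplicates summed. For Neil1 against Neil2 in EBs + RA it went from 0 to 1 with DESeq2. The other 79 counts under other settings and 89 with 1 library left out stayed within 1.5 times. The calls over all genes moved as well, so nothing about the receptors is read from these counts. With 1 library left out they ran from 0 to 2011 for Neil1 mESCs and from 1 to 1494 for Neil2 mESCs. Without control #7 they were 6154 of 16090 genes for Apex1 mESCs and 5631 of 16026 for Apex1 EBs + RA. The main fits tested 15569, 15615, 16240 and 16239 genes in the same order, and calls under other settings are given below.

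Log2 values printed for members kept their direction in every fit. Under other settings 386 fits kept the side of the threshold, 21 lost the call and 5 gained it, and with 1 library left out 409 kept it, 44 lost it and 4 gained it. Members without a call, whose fitted values are mostly not printed, changed sign in 46 of 939 fits. Where mutants and controls shared only a number, deviations of same-numbered libraries correlated between -0.47 and 0.583 outside Neil1 EBs + RA, and a replicate block there added Ret in Neil1 EBs, Pdgfra in Neil2 EBs and Nrp1 in Apex1 EBs and removed Ednra in Neil2 EBs. In mESCs it added Kit for Neil2 and Ngfr and Pdgfra for Apex1. Over all genes the block gave 0 calls in place of 283 for Neil1 mESCs (1828 at an unadjusted p below 0.05), 634 in place of 286 for Neil2 mESCs and 6140 in place of 2751 for Apex1 mESCs, and DESeq2 gave 1044 and 814 for the Neil mutants. All genotypes in 1 fit gave 1290 calls for Neil1 mESCs, and leaving out the filter gave 503 for Neil1 and 479 for Neil2 mESCs. Summing the Apex1 duplicates left 0 calls in mESCs, with 2175 at an unadjusted p below 0.05, 1400 in place of 4026 in EBs + RA and 662 in place of 2646 for the difference between the stages. Ednra and Ednrb were under the filter on low counts in Neil mESCs and had no test there, and all genotypes in 1 fit called Ednra for Neil1.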
